A study of Arabidopsis thaliana with 6 samples.

Results

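Transcripts of the enzymes that build and break down starch were followed in the root tips of the hsl2 mutant and of wild type Arabidopsis thaliana. The set holds 40 genes, chosen by locus for their known place in the pathway, out of 37336 loci in the count files. Of these, 16 serve synthesis and 24 serve breakdown. All 40 were found in the files, and 36 had enough counts to be tested, among 17989 tested genes. The members that were not tested are the beta-amylase genes BAM3, BAM5 and BAM6 and the alpha-amylase gene AMY1.

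The hsl2 plants and the wild type plants were of the Col-0 accession, 7 days old, and both were sampled as the last 0.5 mm of the primary root. Each genotype had 3 libraries. The plates held no sucrose, and the plants had 16 h of light and 8 h of dark each day. HSL2 encodes a HAESA-like receptor kinase, and the series asked how its loss bears on the shedding of root cap cells. The labels name no hsl2 allele. They do not say if replicates were grown apart, so a p-value here reflects sample-to-sample spread that may be technical.

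Starch in the root tip is stored in the amyloplasts of the columella, the centre of the root cap, where the dense granules settle and let the root sense gravity. Synthesis starts from glucose phosphate in the plastid. ADP-glucose pyrophosphorylase makes the activated sugar, starch synthases lengthen the chains, branching enzymes add branches and isoamylases trim them so that the polymer can crystallise. In breakdown, as worked out in leaves at night, dikinases phosphorylate the granule surface, phosphatases remove the phosphate again, and beta-amylases and debranching enzymes release maltose. MEX1 exports the maltose to the cytosol, where DPE2 and PHS2 process it further. Many of these leaf transcripts are known to cycle daily.

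Levels are given as CPM, read counts scaled by library size. Root cap transcripts were present in all libraries: none of the 10 root cap markers was at 0, among them the NAC regulators SMB, FEZ, BRN1 and BRN2. Of the 3 stem cell markers WOX5 lay between 0.253 and 0.854 CPM in hsl2 and between 0.243 and 0.688 CPM in wild type. PLT1 lay between 27.9 and 60.1 CPM in hsl2 and between 50.7 and 66.8 CPM in wild type. PLT2 lay between 13.6 and 23.4 CPM in hsl2 and between 15.6 and 24.7 CPM in wild type. The 3 summed to 42.3, 67.0 and 84.1 CPM in hsl2 and to 87.7, 75.9 and 67.5 CPM in wild type, lowest in hsl2 1. The 6 phloem markers summed to 5.91, 12.3 and 12.1 CPM in hsl2 and to 8.95, 12.4 and 11.6 CPM in wild type. Total counts ran from 15051468 to 19353957 in hsl2 and from 15791819 to 20468890 in wild type, and the 40 starch genes took between 0.0956% and 0.118% of them in hsl2 and between 0.127% and 0.139% in wild type. A count of 3 corresponded to 0.148 to 0.213 CPM, and such limits cover counting error only. A pair of libraries stood apart. The hsl2 1 library carried more transcript of green tissue: 10 photosynthesis markers summed to 97.5 CPM there, against 23.6 and 23.0 CPM in hsl2 2 and 3 and 15.3 to 27.1 CPM in wild type, with RBCS1B at 0 counts in wild type 1. The wild type 3 library was nearest to hsl2 in root hair markers, of which 8 summed to 59.9, 69.6 and 77.1 CPM in hsl2 and to 31.7, 36.1 and 64.1 CPM in wild type. Over tested genes, distance between libraries was measured as chi-square per degree of freedom, which also grows with read depth. From hsl2 1 it was 36.7 and 33.8 to hsl2 2 and 3, which were 6.17 apart, and 42.0 to 49.9 to wild type. From wild type 3 it was 42.0, 13.3 and 12.7 to hsl2 1, 2 and 3, against 17.0 and 21.5 to wild type 1 and 2.

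Starch genes had lower values in hsl2 on both sides of the pathway, by small amounts. Of the 16 tested synthesis genes 12 were lower and 4 were higher, with a median log2 fold change (hsl2 over wild type) of -0.22. Of the 20 tested breakdown genes 16 were lower and 4 were higher, with a median of -0.16. Over all genes tested 48.4% were lower and the median was 0.01. The middle of the spread was alike on both sides, with quartiles of -0.34 and -0.06 for synthesis and of -0.39 and -0.07 for breakdown, against -0.19 and 0.20 over all genes tested.

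No starch gene passed edgeR's quasi-likelihood test at an adjusted p of 0.05, lower or higher, and the percentage of all tested genes that did was 0% in either direction. At an unadjusted p under 0.05, 7 starch genes were lower and 0 were higher, against 6.01% of all tested genes lower and 7.53% higher. These were SS4 and BE1 in synthesis and AMY3, PWD, ISA3, PHS2 and GWD1 in breakdown, 12.5% of the synthesis genes and 25% of the breakdown genes. DESeq2 called 1 of the 36, AMY3, which was lower, against 0.706% of all tested genes lower and 0.917% higher. limma-voom called 0 starch genes and 0 genes in all. Without wild type 1, 3 starch genes had an unadjusted p under 0.05 in edgeR, all lower, where the background was 3.41% lower.

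**Figure D1:**
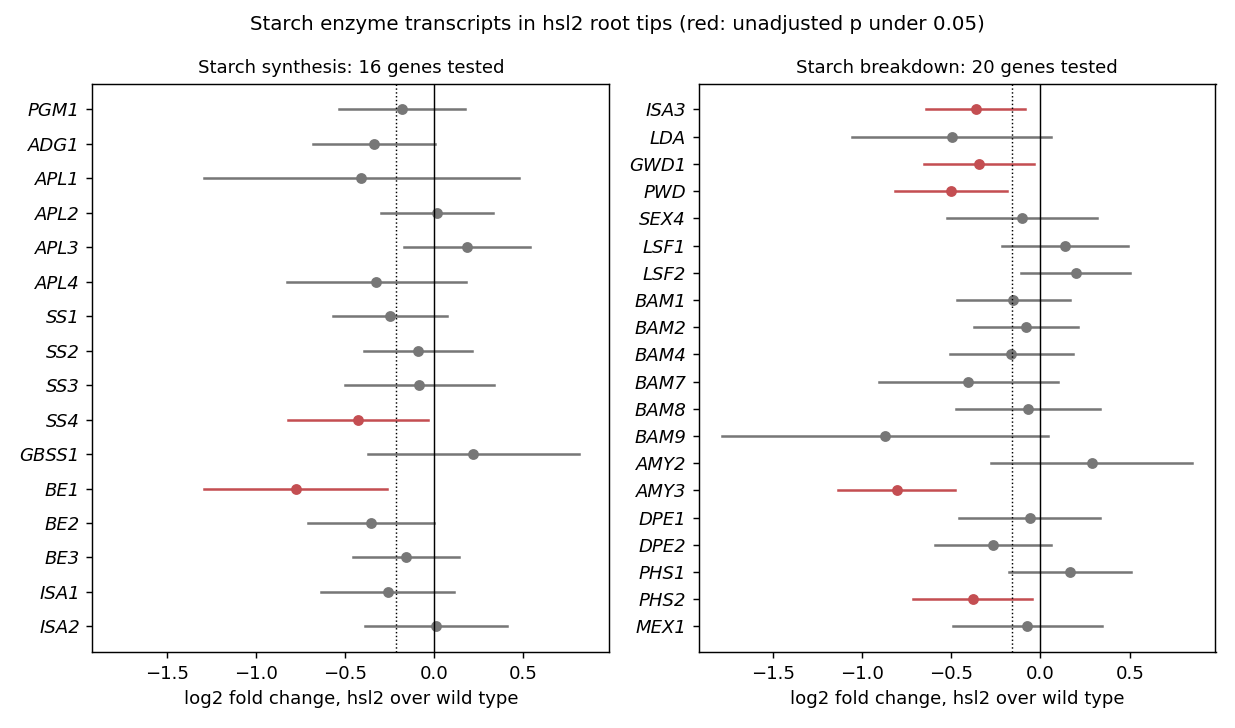
Log2 fold change of each tested starch gene, hsl2 over wild type, for 16 synthesis genes and 20 breakdown genes. Points are edgeR estimates from 3 hsl2 and 3 wild type libraries, lines are 95% intervals, red marks an unadjusted p under 0.05, and the dotted line is the median, at -0.22 for synthesis and -0.16 for breakdown. The intervals of AMY3 (-1.13 to -0.48), BE1 (-1.29 to -0.27) and PWD (-0.81 to -0.19) lie farthest below 0.

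The libraries separated by genotype in the level of the breakdown genes but not in that of the synthesis genes. Relative to each gene's mean over the 6 libraries, the median log2 CPM of the breakdown genes was -0.10, -0.07 and -0.06 in hsl2 1, 2 and 3, against 0.19, 0.04 and 0.14 in wild type 1, 2 and 3. All hsl2 libraries lay below all wild type libraries there. The same median over the synthesis genes was -0.33, -0.09 and 0.05 in hsl2 1, 2 and 3, against 0.13, 0.09 and 0.04 in wild type 1, 2 and 3. There hsl2 3 lay above wild type 3, and hsl2 1 lay below all other libraries. Whether breakdown and synthesis genes differed from each other was not tested.

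The hsl2 1 library held much of the difference in synthesis. It was the lowest of the 6 libraries for 10 of 16 synthesis genes and for 8 of 20 breakdown genes, against 30% of all tested genes. Without it the synthesis median was -0.11, and without both hsl2 1 and wild type 3 it was -0.064, where the breakdown median was -0.18 and -0.14. The median over all genes tested was -0.024 and -0.0023 in these fits, with 53.9% and 50.3% lower. Without wild type 2, the library with the least BAM9 transcript, the breakdown median was -0.26. Of the 10 root cap markers 8 were lower too, and 5 of these had an unadjusted p under 0.05 in edgeR. The median log2 fold change of the 10 was -0.45. Over all tested genes 48.4% were lower, the median was 0.01 and 6.01% were lower at that p. The 2 higher markers were the auxin carriers PIN3 and PIN7, at 0.07 and 0.16, and both overlapped between genotypes. The 10 markers summed to 229, 318 and 309 CPM in hsl2. In wild type they summed to 379, 448 and 310 CPM, where wild type 3 lay among the hsl2 libraries. Their part in the result was not tested, nor was that of the green tissue transcripts in hsl2 1, and in pieces of tissue fewer cells of a type and less RNA per cell cannot be told apart.

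**Figure D2:**
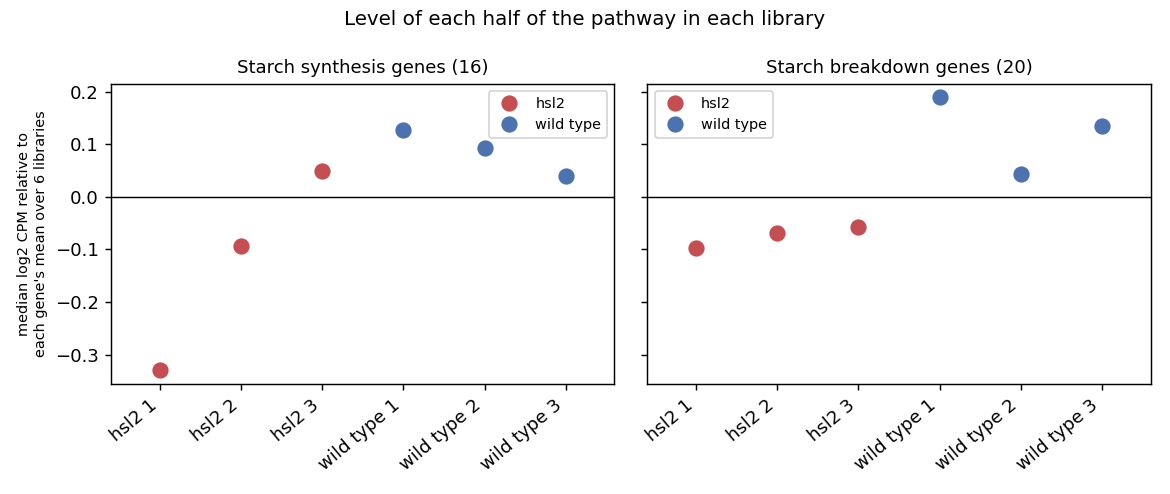
Median log2 CPM of the 16 synthesis genes and the 20 breakdown genes in each library, relative to each gene's mean over the 6 libraries (vertical axis, log2 units), with hsl2 in red and wild type in blue. The hsl2 libraries lie between -0.10 and -0.06 for breakdown and between -0.33 and 0.05 for synthesis.

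Summed levels overlapped between genotypes for synthesis and did not for breakdown, by narrow margins in both. The 16 synthesis genes summed to 376 ± 49.1 CPM in hsl2 and 438 ± 22.4 CPM in wild type (SD, n = 3 each). The 24 breakdown genes summed to 742 ± 36.4 CPM in hsl2 and 874 ± 81.5 CPM in wild type (SD, n = 3 each). For synthesis the highest hsl2 library was at 420 CPM and the lowest wild type library at 413 CPM. For breakdown these were 771 and 781 CPM. The ratio of the breakdown sum to the synthesis sum was 2.17, 1.96 and 1.84 in hsl2 1, 2 and 3, against 2.01, 1.73 and 2.26 in wild type 1, 2 and 3. The genotypes overlapped in this ratio.

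Substrate supply and ADP-glucose pyrophosphorylase (which commits sugar to starch) had no gene with an unadjusted p under 0.05. PGM1 (AT5G51820), the plastid phosphoglucomutase, was at 27.2, 36.7 and 36.8 CPM in hsl2, against 41.6, 33.2 and 39.5 CPM in wild type. The genotypes overlapped, and the log2 fold change of -0.18 had a 95% interval of -0.54 to 0.17. ADG1 (AT5G48300), the catalytic small subunit, was at 36.4, 46.4 and 49.9 CPM in hsl2, against 58.6, 59.6 and 49.3 CPM in wild type. Only hsl2 3 reached the range of wild type, and the log2 fold change was -0.33 with a standard error of 0.15 (edgeR adjusted p = 0.373).

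The large subunits, which tune the enzyme's response to its regulators, were led by APL2 (AT1G27680) and APL3 (AT4G39210) in both genotypes. Per kilobase of exon, APL2 held 54.0% ± 1.33 of the large-subunit level in hsl2 and 55.2% ± 1.597 in wild type, and APL3 held 38.4% ± 1.55 in hsl2 and 34.7% ± 1.82 in wild type (SD, n = 3 each). APL1 (AT5G19220), known as the main large subunit of leaves, held 2.72% ± 0.433 in hsl2 and 3.79% ± 1.43 in wild type (SD, n = 3 each). The shares of APL3 did not overlap between genotypes, and those of APL1 did. APL2 and APL3 each exceeded APL1 per kilobase in all 6 libraries. APL2 was at 27.0, 25.6 and 32.5 CPM in hsl2, against 28.4, 29.7 and 26.2 CPM in wild type, and the groups overlapped. APL4 (AT2G21590) was at 3.34, 3.03 and 3.47 CPM in hsl2, against 4.82, 3.88 and 3.58 CPM in wild type. The genotypes did not overlap for APL4, but the closest libraries differed by little and its log2 fold change was -0.32 with a standard error of 0.23 (edgeR adjusted p = 0.533). APL1 rests on 13 to 34 counts per library, and 602 of its 1732 exon bases overlap an antisense locus with more counts in all (291 against 137), so its values are uncertain.

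Among starch synthases, SS4 (AT4G18240), which starts new granules and sets their number, had the largest difference. SS4 was at 16.3, 23.4 and 24.9 CPM in hsl2, against 27.7, 32.4 and 26.8 CPM in wild type. All hsl2 libraries were below all wild type libraries, and the log2 fold change was -0.43 with a standard error of 0.18 (unadjusted p = 0.0353, adjusted p = 0.348, edgeR). SS1 (AT5G24300), which makes the short chains, was the leading synthase per kilobase of exon, with 44.9% ± 3.74 of the family's level in hsl2 and 45.6% ± 3.78 in wild type (SD, n = 3 each). It was at 41.1, 41.2 and 45.0 CPM in hsl2, against 53.1, 56.2 and 41.9 CPM in wild type. Here wild type 3 lay among the hsl2 libraries. SS2 (AT3G01180) and SS3 (AT1G11720), which make longer chains, had log2 fold changes of -0.09 and -0.08, with intervals of -0.39 to 0.21 and -0.50 to 0.33. GBSS1 (AT1G32900), the granule-bound synthase that makes amylose and is abundant in leaves, was at 4.52 ± 1.58 CPM in hsl2 and 3.87 ± 0.171 CPM in wild type (SD, n = 3 each). It held no more than 6.91% of the synthase level per kilobase in a library.

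BE1 (AT3G20440) had the largest difference on the synthesis side. BE1, also named EMB2729, is annotated as a branching enzyme and is needed for embryo development. It was at 11.5, 16.1 and 21.1 CPM in hsl2, against 30.9, 31.4 and 21.3 CPM in wild type. The genotypes did not overlap, although hsl2 3 and wild type 3 were almost level. The log2 fold change was -0.78 with a standard error of 0.23 (unadjusted p = 0.00695, adjusted p = 0.261, edgeR; adjusted p = 0.0662, DESeq2). Without hsl2 1 and wild type 3 it was -0.75 and passed (edgeR adjusted p = 0.0163), in a fit where 2.72% of all genes were called lower. That fit leaves out the lowest library of each genotype for BE1.

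The branching enzymes that act in leaf starch, BE2 (AT5G03650) and BE3 (AT2G36390), are close paralogues, so reads may be split between them. BE3 was at 50.8, 61.0 and 63.4 CPM in hsl2, against 69.3, 62.6 and 63.5 CPM in wild type. BE2 was at 19.6, 27.3 and 22.6 CPM in hsl2, against 31.0, 31.9 and 26.1 CPM in wild type. Both overlapped between genotypes, with log2 fold changes of -0.16 for BE3 and -0.35 for BE2 and standard errors of 0.13 and 0.16. BE3 held 71.7% ± 2.35 of the level of the pair per kilobase in hsl2 and 68.8% ± 2.32 in wild type (SD, n = 3 each).

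The isoamylases of synthesis work as a complex in which ISA1 (AT2G39930) carries the activity and ISA2 (AT1G03310) is a non-catalytic partner. ISA1 was at 22.4, 32.1 and 32.3 CPM in hsl2, against 33.5, 32.2 and 38.5 CPM in wild type. Only hsl2 1 stood well below the rest, and the log2 fold change was -0.26 with an interval of -0.63 to 0.11. ISA2 was at 11.4 ± 1.78 CPM in hsl2 and 11.3 ± 1.52 CPM in wild type (SD, n = 3 each).

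On the breakdown side, AMY3 (AT1G69830) had the smallest p of the 36 genes tested, and earlier results of these data had already singled it out. AMY3 is a plastid alpha-amylase that cuts inside glucan chains; in Arabidopsis guard cells and under osmotic stress it acts with BAM1 (AT3G23920). It was at 23.3, 26.3 and 24.7 CPM in hsl2, against 48.0, 45.9 and 36.05 CPM in wild type. Every hsl2 library was below every wild type library, and the spread within hsl2 was small. The log2 fold change was -0.81 with a standard error of 0.15, which is 1.75-fold lower in hsl2 (unadjusted p = 0.000255, adjusted p = 0.133, edgeR). It fell with DESeq2 (adjusted p = 0.000783) and also in edgeR without wild type 3 (adjusted p = 0.0444), without hsl2 1 and wild type 3 (adjusted p = 0.00287) and without the filter on low counts (adjusted p = 0.0288). In the same order, 0.706%, 0.0714%, 2.72% and 0.252% of all genes were called lower in these fits. Wild type 3 was the wild type library with the least AMY3 transcript, so passing without it is no separate support. The edgeR adjusted p of AMY3 was 0.547 without wild type 1.

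Levels of clock genes separated the genotypes in the same direction as AMY3. The 12 clock genes summed to 283, 276 and 271 CPM in hsl2 and to 412, 419 and 388 CPM in wild type, and none was at 0. Of the 12, 11 were lower, 7 of them with an unadjusted p under 0.05 and 6 with DESeq2, against 48.4%, 6.01% and 0.706% of all tested genes. GI was at 37.4, 30.5 and 30.5 CPM in hsl2, against 85.6, 87.1 and 60.3 CPM in wild type. As for AMY3, wild type 3 was the wild type library closest to hsl2. Whether the clock genes have a part in the starch values was not tested, and the labels do not give the hour of harvest.

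The other alpha-amylases were scarce. AMY2 (AT1G76130), a cytosolic form, was at 4.06, 3.84 and 3.08 CPM in hsl2, against 3.29, 3.38 and 2.31 CPM in wild type, with a log2 fold change of 0.29 and an interval of -0.28 to 0.85. AMY1 (AT4G25000), a secreted form, had no count in any of the 6 libraries. AMY3 thus made up most of the family per kilobase, 78.3%, 81.2% and 83.5% in hsl2, against 90.2%, 89.5% and 90.8% in wild type. This share did not overlap between genotypes, and an exact permutation test of 3 against 3 cannot go below p = 0.1 (two-sided).

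The dikinases, which open the granule surface to attack, both had an unadjusted p under 0.05. GWD1 (AT1G10760), also known as SEX1 after its starch-excess mutant, was at 53.3, 66.9 and 68.5 CPM in hsl2, against 80.5, 75.9 and 83.1 CPM in wild type. PWD (AT5G26570), which phosphorylates glucan that GWD1 has already marked, was at 26.3, 32.9 and 33.6 CPM in hsl2, against 44.2, 40.3 and 46.9 CPM in wild type. Neither gene overlapped between genotypes. The log2 fold changes were -0.34 for GWD1 (standard error 0.14, unadjusted p = 0.0324, adjusted p = 0.342, edgeR) and -0.50 for PWD (standard error 0.14, unadjusted p = 0.00524, adjusted p = 0.244, edgeR; adjusted p = 0.0875, DESeq2). GWD1 held 61.0%, 61.1% and 61.2% of the pair's level per kilobase in hsl2, against 58.5%, 59.3% and 57.9% in wild type. The SD of this share was 0.0974 in hsl2 and 0.718 in wild type (n = 3 each), and the genotypes did not overlap.

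None of the 3 genes of phosphatases, which undo this phosphorylation, had an unadjusted p under 0.05. LSF2 (AT3G10940) was at 46.6, 37.4 and 36.4 CPM in hsl2, against 35.6, 33.7 and 35.6 CPM in wild type. It was the 1 starch gene whose hsl2 libraries all lay above wild type, with a log2 fold change of 0.20 and an interval of -0.11 to 0.50. The log2 fold change of LSF2 was 0.05 without hsl2 1, its highest library, and hsl2 3 was almost level with wild type. SEX4 (AT3G52180), the main phosphatase of leaf starch, was at 14.8, 10.4 and 9.81 CPM in hsl2, against 13.7, 12.2 and 11.7 CPM in wild type. LSF1 (AT3G01510), which is thought to act as a scaffold without phosphatase activity, was at 9.54 ± 0.606 CPM in hsl2 and 8.66 ± 0.601 CPM in wild type (SD, n = 3 each). SEX4 and LSF1 overlapped between genotypes.

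**Figure D3:**
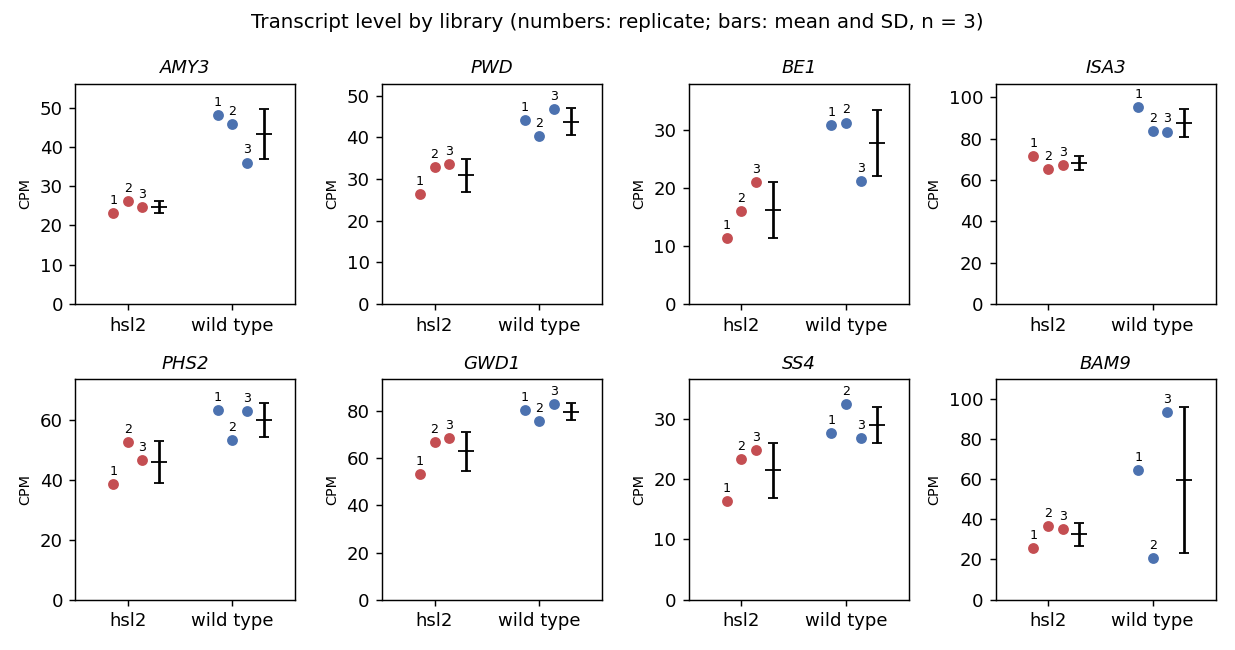
Level in CPM of the 7 starch genes with an unadjusted p under 0.05 and of BAM9 (AT5G18670), in each hsl2 library (red, left) and wild type library (blue, right), with the replicate number above each point and the mean and SD (n = 3) beside them. The hsl2 libraries lie below the wild type libraries in all panels but that of BAM9, where wild type 2, at 20.8 CPM, is the lowest of the 6.

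The debranching enzymes ISA3 (AT4G09020) and LDA (AT5G04360), which remove branches during breakdown, both had negative log2 fold changes. ISA3 was at 71.7, 65.3 and 67.3 CPM in hsl2, against 95.4, 83.9 and 83.4 CPM in wild type. The highest hsl2 library lay below the lowest wild type library, and the log2 fold change was -0.36 with a standard error of 0.13 (unadjusted p = 0.0158, adjusted p = 0.310, edgeR). Without hsl2 1 and wild type 3 it was -0.44 and passed (edgeR adjusted p = 0.0334). That fit leaves out the highest hsl2 library and the lowest wild type library for ISA3, so its p is no separate support. It also leaves out the wild type library nearest to hsl2 in root hair markers. In that fit 2.72% of all genes were called lower, against 0% with all libraries. LDA, with 44 to 141 counts per library, was at 3.13, 4.10 and 5.04 CPM in hsl2, against 6.93, 4.43 and 5.95 CPM in wild type, and the genotypes overlapped.

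The beta-amylases, which release maltose from chain ends, had 6 members tested, 6 of them lower and none with an unadjusted p under 0.05. BAM9, a plastid member thought to lack catalytic activity, varied more than any other tested starch gene within wild type. It was at 25.9, 36.5 and 35.1 CPM in hsl2, against 64.5, 20.8 and 93.2 CPM in wild type. Wild type 1 and 3 lay above all hsl2 libraries and wild type 2 below them, a 4.48-fold range within wild type against 1.41-fold within hsl2. The log2 fold change of -0.87 had a standard error of 0.41 (edgeR adjusted p = 0.382). It was -1.28 without wild type 2, -0.40 without wild type 3 and -0.26 without hsl2 1 and wild type 3.

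BAM1, which serves starch breakdown in light and stress, was between 38.7 and 42.9 CPM in hsl2 and between 38.0 and 51.1 CPM in wild type. Its level per kilobase was close to that of BAM9 in hsl2, 16.1 ± 0.862 and 16.3 ± 2.88 CPM per kilobase (SD, n = 3 each). The plastid form BAM2 (AT4G00490), the non-catalytic BAM4 (AT5G55700) and the nuclear BAM8 (AT5G45300) had log2 fold changes of -0.08, -0.16 and -0.07. BAM7 (AT2G45880), which like BAM8 carries a DNA-binding domain and is found in the nucleus, was at 8.40, 16.2 and 14.9 CPM in hsl2, against 16.1, 17.2 and 19.2 CPM in wild type. The hsl2 1 library was the lowest, and the log2 fold change was -0.40 with it and -0.19 without it.

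BAM3 (AT4G17090), the main beta-amylase of leaf mesophyll at night, was almost absent from the root tip. It had 0, 5 and 1 counts in hsl2 and 0 counts in all wild type libraries. BAM5 (AT4G15210), a form of the phloem cytosol, had 1 count in hsl2 1 and 0 in the other 5 libraries, and BAM6 (AT2G32290) had 0 in all 6. Counts of 0 allow up to 0.148 to 0.213 CPM in a library.

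**Figure D4:**
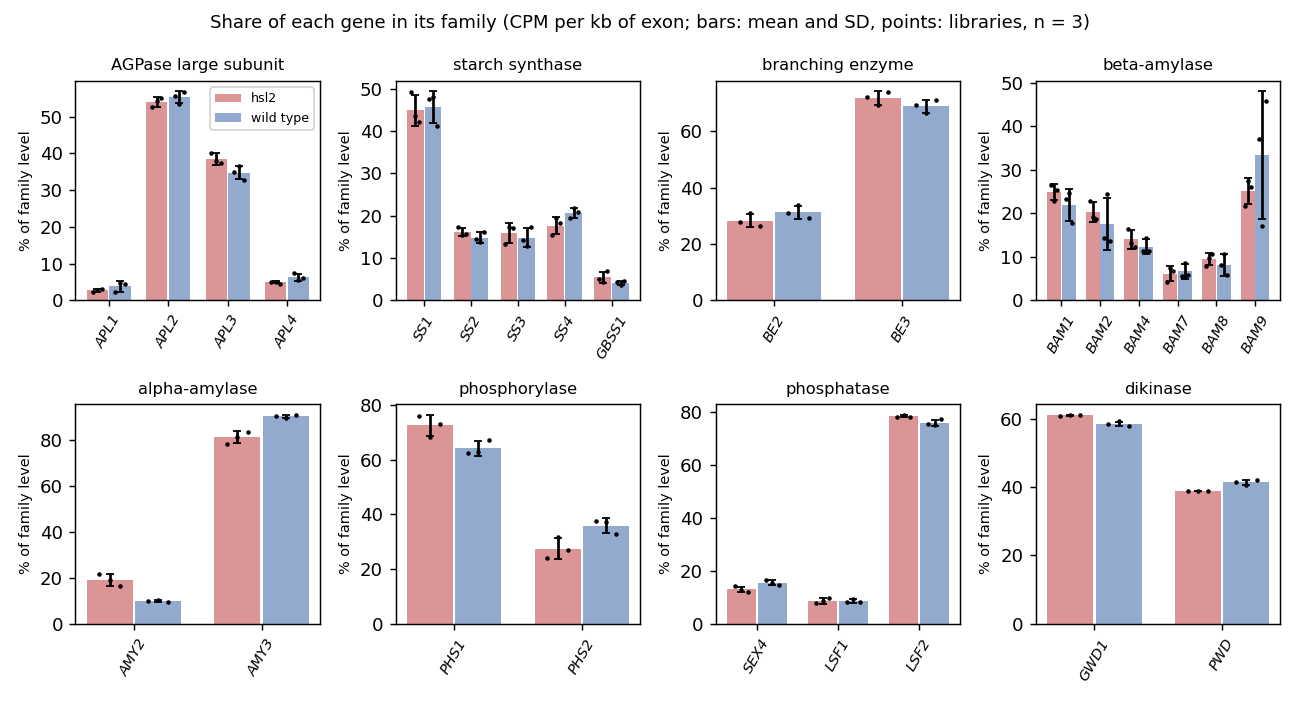
Share of each gene in the level of its family, in percent of summed CPM per kilobase of exon, with hsl2 (red) left of wild type (blue). Bars and lines are means and SDs (n = 3) and points are libraries; BAM3, BAM5, BAM6 and AMY1, at or near 0, are left out. AMY3 held 78.3% to 83.5% of the alpha-amylase level in hsl2 and 89.5% to 90.8% in wild type.

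The glucan phosphorylases differed in sign: the estimate was negative for the cytosolic form and positive for the plastid form, and the difference between them was not tested. PHS2 (AT3G46970), the cytosolic form that works on the glucan made by DPE2 (AT2G40840), was at 38.8, 52.9 and 46.7 CPM in hsl2, against 63.5, 53.5 and 63.1 CPM in wild type. PHS1 (AT3G29320), the plastid form, was at 123, 114 and 128 CPM in hsl2, against 105, 90.3 and 131 CPM in wild type. PHS2 did not overlap between genotypes, with hsl2 2 just under wild type 2, and PHS1 did. The log2 fold change of PHS2 was -0.38 with a standard error of 0.15 (unadjusted p = 0.0298, adjusted p = 0.342, edgeR), and that of PHS1 was 0.16 with an interval of -0.18 to 0.51. PHS1 held 76.0%, 68.3% and 73.2% of the pair's level per kilobase in hsl2, against 62.3%, 62.7% and 67.4% in wild type, and this share did not overlap. A share within a pair restates the gap between its genes, and no background for shares was computed. The shares of APL4, SS4, SEX4 and LSF2 in their families did not overlap either.

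DPE2, the cytosolic enzyme that uses exported maltose, had the highest level per kilobase of the breakdown genes in wild type and was close to PHS1 in hsl2. It stood at 37.8 ± 5.99 in hsl2 and 45.5 ± 1.68 CPM per kilobase in wild type, and PHS1 at 38.3 ± 2.17 in hsl2 and 34.2 ± 6.42 CPM per kilobase in wild type (SD, n = 3 each). DPE2 was at 105, 139 and 142 CPM in hsl2, against 161, 150 and 154 CPM in wild type. The genotypes did not overlap, and the log2 fold change was -0.26 with an interval of -0.59 to 0.06 (edgeR adjusted p = 0.444). DPE1 (AT5G64860), the plastid enzyme that rebuilds longer glucans from maltotriose, had a log2 fold change of -0.06. MEX1 (AT5G17520), the maltose exporter, was at 12.0, 12.0 and 11.4 CPM in hsl2, against 14.3, 13.8 and 9.29 CPM in wild type, and the groups overlapped.

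In all, 9 of the 36 tested starch genes had all hsl2 libraries below all wild type libraries and 1 had them above. This was 3 of 16 synthesis genes (APL4, SS4 and BE1) and 6 of 20 breakdown genes (ISA3, GWD1, PWD, AMY3, DPE2 and PHS2). Over all genes tested the shares were 9.44% below and 11.3% above, against 25% of the starch genes below. Members were known to share a pathway when they were chosen, so these counts describe the list and are no test of it.

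Genes that feed the pathway or organise the granule were, taken as 1 list, split in direction. Of 25 such genes 24 were tested, 13 lower and 11 higher, with a median log2 fold change of -0.06. The list mixes granule genes with genes of sugar supply. Of the former, PTST1, PTST2, PTST3, SS5, MRC, ESV1 and LESV had log2 fold changes between -0.33 and -0.05, and MFP1 had 0.07. Among these granule genes only LESV had an unadjusted p under 0.05 in edgeR. LESV, a protein that helps glucan pack into granules, was at 23.3, 21.7 and 25.3 CPM in hsl2, against 32.7, 25.7 and 29.4 CPM in wild type (unadjusted p = 0.0456, adjusted p = 0.363, edgeR). SUS4, a sucrose synthase, was at 0.925, 2.28 and 0.589 CPM in hsl2, against 4.52, 5.78 and 1.64 CPM in wild type (unadjusted p = 0.0135, adjusted p = 0.306, edgeR), and it has a close paralogue in SUS1. UGP2, which makes UDP-glucose, was at 49.2, 46.5 and 51.3 CPM in hsl2, against 41.9, 39.1 and 37.3 CPM in wild type (unadjusted p = 0.0286, adjusted p = 0.339, edgeR). LESV and UGP2 did not overlap between genotypes, and SUS4 did. These 3, 2 lower and 1 higher, were the related genes with an unadjusted p under 0.05, which is 12.5% of the list against 13.5% of all tested genes, so the count was near the background. By overlap, 5 related genes had all hsl2 libraries below all wild type libraries and 2 had them above. The 5 were 20.8% of the 24 tested, against 9.44% of all tested genes below and 11.3% above. GPT1 and NTT2, which carry glucose phosphate and ATP into the plastid, had log2 fold changes of 0.05 and -0.27, neither with an unadjusted p under 0.05. NTT2 did not overlap between genotypes, and GPT1 did.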

How the data were processed

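RNA from 3 hsl2 and 3 wild type root tip samples was sequenced from stranded TruSeq libraries, per the labels' protocols. The deposited values are raw read counts per gene, which the authors made with Trimmomatic 0.33, STAR 2.5.1b and featureCounts (version not given), per the submitters' processing notes. The genome build, annotation and strand setting are not stated in any source used here. Exons of 16 members overlap another locus in the TAIR10.1 reference, whose exon lengths scaled levels per kilobase.

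Counts were fitted in R 4.3.3 with edgeR 4.0.16 (filterByExpr, TMM, quasi-likelihood F-test, genotype only, 4 residual degrees of freedom), with Benjamini-Hochberg adjustment over all 17989 genes tested. Standard errors come from the F statistic. Medians by library use log2 CPM with a prior count of 2. DESeq2 1.42.0 and limma-voom (limma 3.58.1) were alternatives, beside other scalings, filters, left-out libraries and a replicate block. The edgeR, DESeq2 and voom fits were tested on simulated data. All 40 members matched the reference by locus. Members and lists were chosen with earlier results of these data known. AMY3 was singled out because it had passed with DESeq2 in those results, so its choice is not independent of these data. Values in every library are given for starch genes leading a family per kilobase, with an unadjusted p under 0.05 or with genotypes apart. For related genes they are given only at an unadjusted p under 0.05.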

Additional observations from a re-analysis of the deposited data

How the results depend on the processing

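Of 36 tested starch genes, 28 kept the sign of their log2 fold change under all 14 alternatives. AMY3 kept it throughout, between -0.92 and -0.74, with adjusted p between 0.000783 and 0.547. It passed with DESeq2 (-0.81), without the filter (-0.81), without wild type 3 (-0.92) and without hsl2 1 and wild type 3 (-0.88), and its values with 1 library left out ran from -0.92 to -0.74. The number of starch genes past the threshold was 0, and 1 with DESeq2, 1 without the filter, 0 to 1 with 1 library left out and 3 without hsl2 1 and wild type 3. Over all genes, the share called in either direction was 1.62% with DESeq2, 0.455% without the filter, 0.302% without wild type 3 and 7.20% without hsl2 1 and wild type 3. The number of starch genes with an unadjusted p under 0.05 was 7, and 3 to 8 with 1 library left out, all of them lower. Over all genes the share lower at that p was 6.01%, and 3.41% to 7.55% with 1 library left out. The breakdown median ran from -0.26 to -0.14 and the synthesis median from -0.27 to -0.11 with 1 library left out, and the synthesis median was -0.064 without hsl2 1 and wild type 3.

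Small differences turned sign. With 1 library left out, SS3 ran from -0.23 to 0.073, BAM8 from -0.20 to 0.060, DPE1 from -0.22 to 0.097, APL2 from -0.093 to 0.086, GBSS1 from -0.10 to 0.37, ISA2 from -0.12 to 0.099, SEX4 from -0.33 to 0.0058 and MEX1 from -0.24 to 0.027. Without hsl2 1 and wild type 3, APL2 was -0.0021, SS3 0.16, BAM8 0.017 and DPE1 0.013. The cause was not tested. Same-numbered libraries correlated at 0.138, 0.0645 and 0.0204 after group means were removed, and 5 of 6 correlated best with their own number. Not every correlation was over 0.1 and the labels give no shared source, so pairing was not established. The replicate block left 0 starch genes past the threshold, while the count over all genes was 52 against 0 without the block. With it 9 starch genes were lower at an unadjusted p under 0.05, against 6.45% of all genes lower. AMY3 was at -0.80 with the block (edgeR adjusted p = 0.0685). LDA, GBSS1, AMY2, APL1 and APL4 rest on few counts, which limits the precision of their values.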
